A study of Mus musculus with 16 samples.

Results

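Regions of Dazl-crosslinked RNA that span more than the usual 17 nt once neighbouring intervals are joined are described here, for a spermatogonial cell line. Listed intervals of the 12 libraries that lay at most 10 nt apart were joined into regions, and 1039 of the 8338 regions (12.5%) were longer than 17 nt. A further 6798 (81.5%) were exactly 17 nt, and 501 (6.01%) were shorter. The longer regions can hold uncovered positions. With joining at 0 nt, 736 regions were longer than 17 nt and the longest had 84 nt. GC-1 spg is a mouse line of spermatogonial origin, and the cells used were 1 clone of it in which doxycycline switches on Dazl, so all groups share the clone, the inducible gene and the drug. A pulsed ultraviolet laser fixed Dazl to RNA for 30, 180 or 680 s, at 2.6 or 1 mW, in cells with 4.2x or 1x Dazl, with 1 library for each of these 12 conditions. Samples of 0 s were not analysed here, and the background without crosslinking is not known.

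Dazl is an RNA-binding protein of germ cells that is needed for gamete formation. It recognises short motifs built around GUU, most of them known from 3′ untranslated regions, and it can raise translation through poly(A)-binding protein. In the KIN-CLIP assay a longer or stronger laser exposure lets more Dazl contacts become covalent, and the crosslinked RNA is then copied and sequenced as in iCLIP. The value of a region is the authors' normalized coverage summed over its positions, called coverage below. It is a score with no stated link to read numbers, so the depth in reads is unknown and no counting interval is given.

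A reference sequence was at hand for 12 of the 1039 members, those that fall inside a promoter window of the RefSeq tables (GRCm38.p6). The sequences below are shown because of the trinucleotide GTT, in capitals, around which Dazl motifs are built. They are written 5′ to 3′ on the plus strand of the genome, with at most 30 bases of each member. The Tmem262 and Gdf10 members are whole, the Patz1 and Tspan4 stretches are parts, and the Sema3e stretch, also a part, holds no GTT.
Tmem262, chr19:6079962-6079982: acattctGTTtGTTggaatca
Patz1, chr11:3308919-3308948: ccaGTTtgatcaggaagaggGTTccgtggt
Tspan4, chr7:141475283-141475312: gattaccctgaagcggcggtGTTccttgct
Gdf10, chr14:33923609-33923635: gctccgtgggctgcaaaGTTtgcagcg
Sema3e, chr5:14025265-14025294: gcgggcgggtcagagccggggagatgcggc

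In the 21-nt member of Tmem262, both copies of GTT sit 7 nt in from an end of the member. Each GTT is thus the middle of a 17-nt window that starts or ends with the member. The Tmem262 member had a coverage of 6 at 30, 180 and 680 s in the series of 2.6 mW and 4.2x Dazl, against 2 at each time in that of 1 mW and 1x, and 6 and 2 are the lowest values of any member in the 680 s libraries of these series. Of the 25 such end windows with known sequence, from 12 members and a further 1 known in part, 14 (56%) held GTT at positions 8 to 10 on the plus strand and 0 held its reverse complement AAC there. The 17-nt regions with known sequence had GTT at the same place in 53 of 113 (46.9%), and AAC in 0. Among all 17-nt windows of the promoter sequences 1.20% had GTT and 1.20% AAC at these positions. GTT was read on the plus strand of the genome also in genes of the minus strand, where 11 of 23 windows of either kind held it and 0 held AAC, so that the RNA of those genes has AAC at that place. The files carry no strand, and the windows with sequence lie near gene starts of the annotation, so they are no sample of all members.

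The members ran to 150 nt, with a median of 33 nt. Of them 539 (51.9%) were 18 to 33 nt long, 23 were 34 nt, 337 (32.4%) were 35 to 44 nt, 98 were 45 to 60 nt and 42 were 61 to 150 nt. At the edge of the rule, the 14 regions of 18 nt had a median coverage, averaged over libraries, of 18.8, the 6798 regions of 17 nt 11.4, and the 310 of 16 nt 1.67.

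Coverage inside the members followed a layout of 17-nt windows. In members of 18 to 33 nt, the middle zone that a 17-nt window from each end would share had between 1.83 and 1.94 times the coverage per nt of the flanks in all 12 libraries, and the median member had 1.97 times. In members of 35 to 44 nt, the stretch between the outer windows was uncovered in every library in 251 of 337 (74.5%). In the library of 680 s, 2.6 mW and 4.2x Dazl this stretch had 0.429 per nt, against 1.79 in the outer windows, and the 17-nt regions had 1.58. The lowest values had the same steps. In the library of 180 s, 1 mW and 1x Dazl, 591 members (56.9%) stood at the members' lowest value of 2, members of 45 nt or more had at least 3, and 6209 of the 17-nt regions (91.3%) stood at 1. Most members can therefore be described as 2 or more joined windows, and the profile of coverage across regions of 5 lengths shows this.

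**Figure D1:**
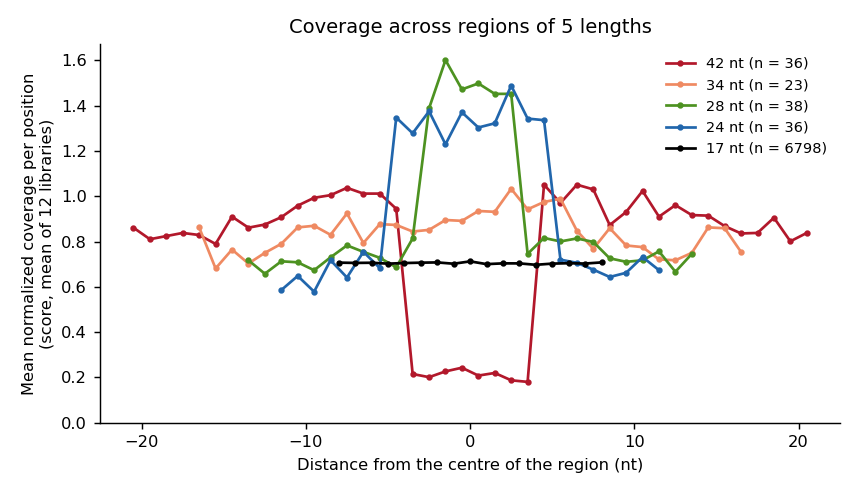
Mean normalized coverage per position (score, averaged over 12 libraries and over the regions of a length) against the distance from the region's centre, for regions of 42, 34, 28, 24 and 17 nt. The 24- and 28-nt regions have a raised middle, the 42-nt regions a low middle, and the 17-nt regions are flat near 0.7.

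The highest coverage of the whole series lay in these members. All of the 10 regions with the highest mean over the 12 libraries were members, as were 93 of the top 100 and 704 of the top 1000. Their mean coverage had a median of 26.8 (quartiles 19.25 and 35.5), and that of the 17-nt regions was 11.4 (quartiles 8.44 and 14.9). A member holds more positions, so part of this follows from the rule. Per nt, the members together had between 1.19 and 1.40 times the coverage of the 17-nt regions. The mean log2 ratio was 0.36 ± 0.08 (SD, n = 12 libraries), higher in 12 of 12. Joining windows that overlap puts their coverage on fewer positions, so this ratio follows in part from the rule and is given as a description with no test. Averaged over libraries, members of 18 to 33 nt had 0.986 per nt, those of 34 nt 0.840, those of 35 to 44 nt 0.748, those of 45 to 60 nt 0.841 and those of 61 to 150 nt 1.15, with 0.705 for 17-nt regions. The 251 members made of 2 separate windows had less per nt than 17-nt regions, since their uncovered middle counts as length (log2 ratio -0.13).

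Pdia3, a protein disulfide isomerase of the endoplasmic reticulum, held the longest member and the one with the highest coverage, 150 nt at chr2:121437783-121437932, 755 nt from the 3′ end of the gene. Its coverage at 30, 180 and 680 s was 665, 681 and 868 with 2.6 mW and 4.2x Dazl, 367, 317 and 708 with 2.6 mW and 1x, 258, 187 and 512 with 1 mW and 4.2x, and 65, 37 and 315 with 1 mW and 1x. In all 4 series the 680 s library was the highest, and in 3 of them the 180 s library was the lowest. With limma, coverage was higher at 2.6 mW than at 1 mW by 1.76 ± 0.47 on the log2 scale (SE, adjusted p = 0.000278) and higher at 4.2x than at 1x Dazl by 1.19 ± 0.47 (adjusted p = 0.0183). The difference between 680 and 30 s, 1.13 ± 0.57, did not pass (limma adjusted p = 0.0729). Along the member, coverage came in 5 listed stretches parted by 16 uncovered positions, and reached 24 per position, the highest value in the files, at positions 69 and 75.

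The 86-nt member of Thbs1, an adhesive glycoprotein of the matrix, was next. At 30, 180 and 680 s it had 588, 588 and 723 in the series of 2.6 mW and 4.2x Dazl, against 66, 36 and 236 in that of 1 mW and 1x. All 3 values of the stronger series lay above all 3 of the weaker one. Its coverage per nt in the library of 680 s, 2.6 mW and 4.2x was 8.41, against 5.79 for the Pdia3 member, so the order of these 2 members turns round when their length is taken into account. The Thbs1 member was called higher at 2.6 mW than at 1 mW (log2 1.66 ± 0.46 SE, limma adjusted p = 0.000447) and at 4.2x than at 1x Dazl (1.21 ± 0.46, adjusted p = 0.0143), and not between 680 and 30 s (0.98 ± 0.56, adjusted p = 0.112).

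The next member, of 130 nt at chr15:102498671-102498800, lies in the spans of both Map3k12, a protein kinase, and Pcbp2, a poly(C)-binding protein, and cannot be given to either. At 30, 180 and 680 s its coverage was 276, 316 and 396 with 2.6 mW and 4.2x Dazl, against 14, 14 and 126 with 1 mW and 1x. Ppp2ca, the catalytic subunit of protein phosphatase 2A, held a member of 112 nt that lay 155 nt from the gene's 3′ end and had 288, 293 and 348 in the stronger of these series and 10, 10 and 100 in the weaker one. At 1 mW and 1x Dazl each of these members thus stood at the same value at 30 and 180 s, and higher at 680 s.

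**Figure D2:**
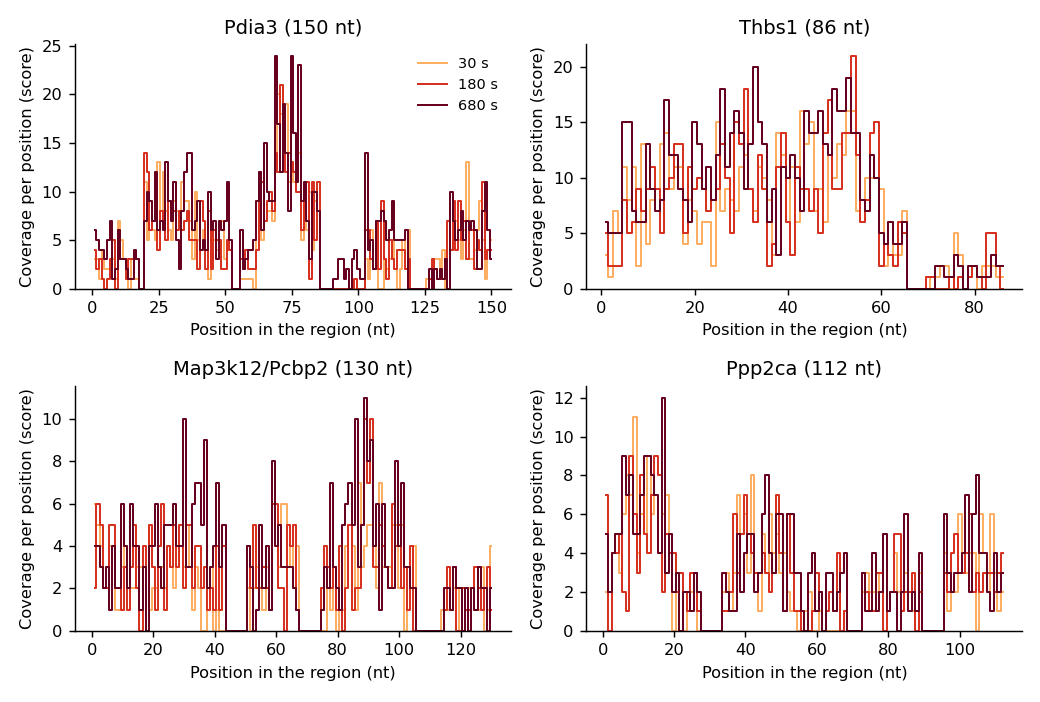
Coverage per position (score) along the 4 members of highest mean coverage, in Pdia3, Thbs1, Map3k12/Pcbp2 and Ppp2ca, at 30, 180 and 680 s with 2.6 mW and 4.2x Dazl. Coverage falls into blocks parted by positions with none. Positions 91 to 102 of the Pdia3 member hold coverage at 680 s and almost none at 30 and 180 s.

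The other members among the 10 longest lay in Laptm4a, a lysosomal membrane protein (105 nt), Jund, a transcription factor of the AP-1 group (99 nt), Xpo1, the nuclear export receptor (94 nt), Tmed9, a cargo receptor of the early secretory pathway (91 nt), Gse1 (84 nt) and Ccn2, a matricellular growth factor (83 nt). Their mean coverage was between 61.4 in Gse1 and 142.75 in Jund. The other members among the 10 of highest coverage were shorter. They were 57 nt in the overlap of Syn3 and Timp3 (mean 167), 57 nt in the integrin chain Itgb1 (166), 73 nt as a second member in Jund (161), 72 nt in the transcription factor Cebpb (143) and 33 nt in App, the amyloid precursor (132). In Jund the 99-nt member reaches the annotated gene end and the 73-nt member lies 174 nt from it. With 2.6 mW and 4.2x Dazl the 99-nt member had 274, 242 and 274 at 30, 180 and 680 s, and the 73-nt member 275, 277 and 344, so the 2 neighbours were level at 30 s and apart at 680 s. Cebpb had 258, 239 and 274 in that series, against 8, 8 and 74 with 1 mW and 1x. App, whose member is the shortest of the 10, had 220, 231 and 260 there, against 12, 10 and 105 with 1 mW and 1x.

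**Figure D3:**
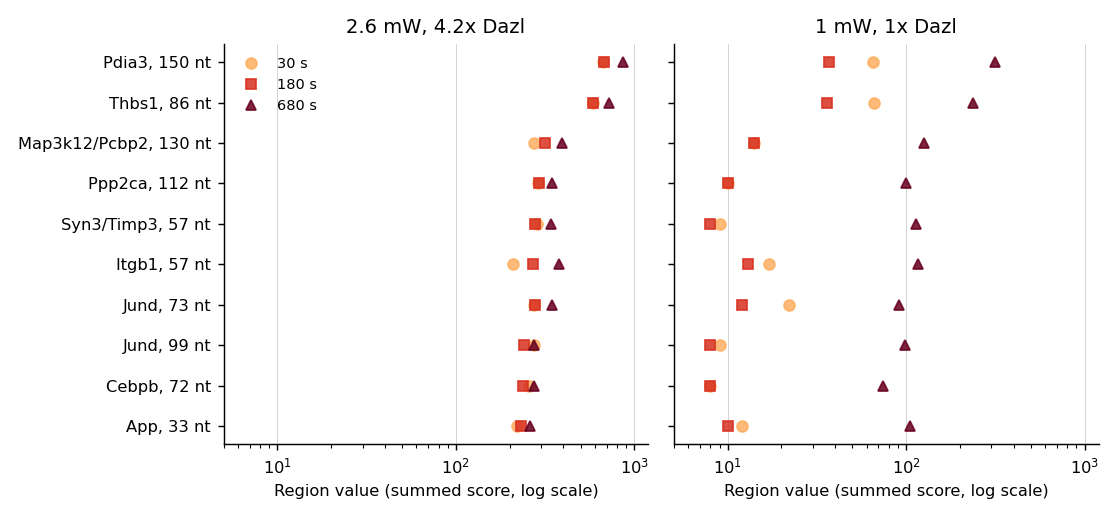
Coverage (summed score, log axis) of the 10 members of highest mean coverage at 30, 180 and 680 s, with 2.6 mW and 4.2x Dazl in the left panel and 1 mW and 1x Dazl in the right. In the left panel the 3 times lie close together for each member, and in the right panel the 680 s values stand apart above the others.

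Of the 1039 members, 983 could be placed in a gene, and these lay in 672 of the 3203 genes that held any region (21.0%). Protein-coding genes held 975 of them, and 7 lay in long noncoding RNAs. Most genes with a member, 453, had 1, and 5 genes had 5 or more. Dcbld2, a membrane protein of the neuropilin type, had 9 members among 22 regions, and the members held 61.4% of its coverage. Thbs1 had 6 of 28 regions (64.3% of coverage), Tm9sf3, a multispanning membrane protein, 6 of 14 (70.7%), Hnrnpk, a poly(C)-binding nuclear protein, 5 of 12 (57.4%) and Tfrc, the transferrin receptor, 5 of 17 (55.4%). Scd2, a fatty acid desaturase, Rpn2, a subunit of oligosaccharyltransferase, Srsf6, an SR splicing factor, Canx, the chaperone calnexin, and Tnks2, a poly(ADP-ribose) polymerase, had 4 each, and were those of highest summed coverage among 16 genes with 4. In Rpn2 the members held 80.5% of the coverage in 4 of 9 regions. The share of regions that were long was 5.96% in genes of a lone region, 7.51% in genes of 2, 15.9% in genes of 3 to 5, 18.6% in genes of 6 to 10 and 13.3% in genes of over 10 regions.

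Members lay nearer to the 3′ ends of genes than 17-nt regions did. For the 804 members in a gene of known strand, the median distance to the 3′ end of the gene was 809.5 nt, and it was 1825 nt for 5069 regions of 17 nt. Within 1000 nt of that end lay 56.1% of members and 35.1% of 17-nt regions, and within 1000 nt of the 5′ end 1.87% and 6.92%. Of 458 genes with both kinds, the members were nearer to the 3′ end by their median in 296 (64.6%) and the 17-nt regions in 162. Regions are not replicates, so these shares are given without a test. The annotation used holds gene spans only, and exons and untranslated regions were not assigned.

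Members were also unevenly split between the strands. Genes of the plus strand held 514 members and genes of the minus strand 290, so 63.9% of them lay in plus-strand genes, and 51.02% of 17-nt regions did. Of all regions in plus-strand genes 15.7% were members, and in minus-strand genes 9.87%. Plus-strand genes made up 49.9% of the protein-coding genes of known strand, and genes with a region had 2.44 regions each on the plus and 2.42 on the minus strand. Median coverage was close, with 27.4 for members in plus-strand and 26.3 for members in minus-strand genes.

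**Figure D4:**
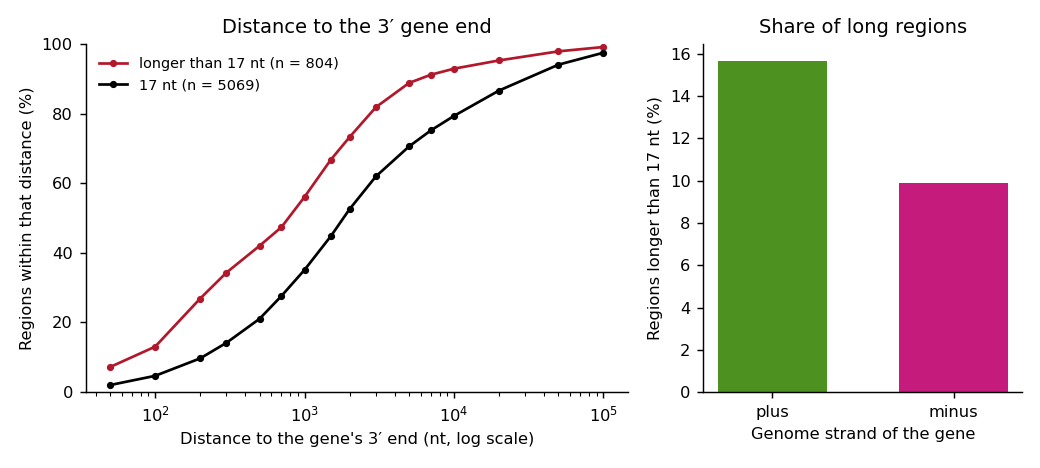
Left, the share of regions within a given distance (nt, log axis) of the 3′ end of their gene, for 804 regions longer than 17 nt and 5069 regions of 17 nt. Right, the share of all regions longer than 17 nt in genes of each strand, 15.7% for plus and 9.87% for minus.

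The comparison over time asks whether coverage on long regions grows in step with that on 17-nt regions. It grew less. Summed over regions, the members' coverage was 1.33 to 5.22 times as high at 680 s as at 30 s in the 4 series, and that of the 17-nt regions 1.504 to 5.57 times. The highest folds are those of 1 mW and 1x Dazl. At 30 s in that series 83.5% of the 17-nt regions stood at their lowest value of 1, and the median member had 3. The ratio of members to 17-nt regions was 0.382, 0.375, 0.375 and 0.376 in the libraries of 680 s, and lay between 0.406 and 0.441 at 180 s and between 0.407 and 0.437 at 30 s. The 680 s libraries thus did not overlap with the others. They were also alike across members, with r of 0.93 to 0.99 in 6 pairs of them, against 0.46 to 0.96 in 28 pairs of other libraries. The permutation p below takes the 4 series as independent, which these libraries may not be. The log2 ratio at 680 s minus that at 30 s was -0.16 ± 0.05 (SD, n = 4 series), lower in 4 of 4, with an exact permutation p of 0.00772. By length, it was -0.17 for members of 18 to 33 nt, -0.14 for 35 to 44 nt and -0.23 for 61 to 150 nt (each exact permutation p = 0.0103, adjusted over 5 length classes), -0.04 for 34 nt (0.256) and -0.14 for 45 to 60 nt (0.110). It was -0.18 in plus-strand and -0.14 in minus-strand genes. With both kinds limited to regions that averaged at least 20 over the 180 s libraries, a limit set after the values were seen that leaves 520 members and 174 regions of 17 nt, the value was 0.15, in the other direction (exact p = 0.131).

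**Figure D5:**
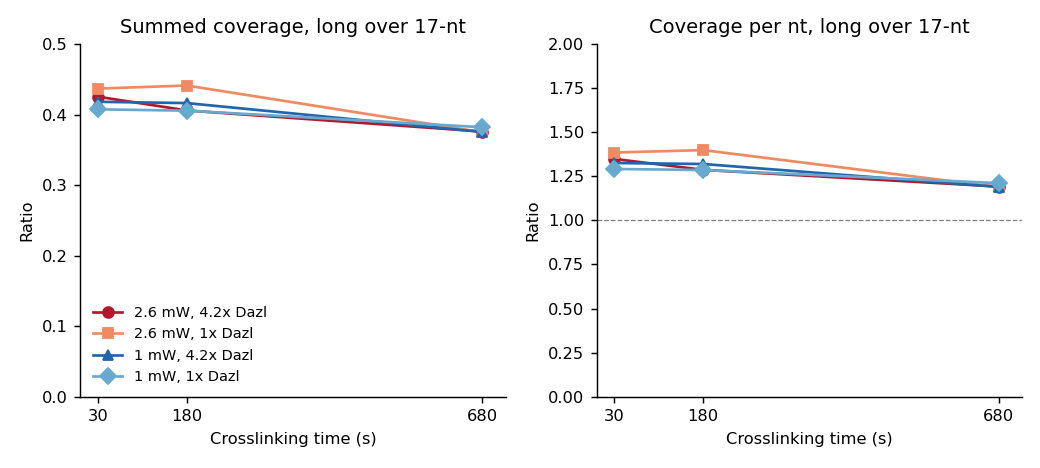
Left, summed coverage of the members over that of the 17-nt regions against crosslinking time, for the 4 series of laser power and Dazl level. Right, the same per nt, which is the left panel times a constant because the summed lengths are the same in every library. In both panels the 4 libraries of 680 s fall together, at 0.375 to 0.382 on the left and 1.19 to 1.21 on the right, below all others.

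As sums, members stood nearer to their 680 s coverage at 30 s. Their summed coverage at 30 s was 75.2% of that at 680 s with 2.6 mW and 4.2x Dazl (66.5% in the 17-nt regions), 50.2% with 2.6 mW and 1x (43.1%), 52.3% with 1 mW and 4.2x (46.9%) and 19.1% with 1 mW and 1x (17.95%). The median region with at least 10 at 680 s went the other way with 2.6 mW and 4.2x Dazl, at 76.7% for members and 88.9% for 17-nt regions. In the other 3 series the median member was the higher, with 48.2% against 35% (2.6 mW, 1x), 52.9% against 45.5% (1 mW, 4.2x) and 15.4% against 9.09% (1 mW, 1x). With 1 mW and 1x the limit of 10 kept 896 of 1039 members and 2440 of 6798 regions of 17 nt. At 30 s in that series 83.5% of all 17-nt regions stood at 1, and no member was below 2. This last pair therefore cannot tell which kind filled earlier. With 2.6 mW and 4.2x, 309 members (29.7%) had exactly the same value at both times and 0 were lower at 680 s, and 3296 of the 17-nt regions (48.5%) were tied and 0 lower. Such ties show that deposited values are linked between libraries, and p-values here take the libraries as independent.

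The 251 members made of 2 separate windows allow a look at neighbours that lie at most 10 nt apart. Each window had on average 1.00 to 1.01 times the coverage of a 17-nt region in the 4 libraries of 680 s, and 1.06 to 1.13 times in the 8 others. Across these members, the coverages of the 2 windows, as log2(value + 3), correlated with r of 0.79 to 0.90 in 3 libraries of 680 s, 0.49 in that of 680 s, 1 mW and 1x, and 0.06 to 0.49 in the 8 others. The share of the 680 s coverage reached at 30 s had r of 0.05 to 0.19 between the 2 windows, over the 234, 231, 207 and 44 members with enough coverage at 680 s (at least 10 in both windows) with 2.6 mW and 4.2x Dazl, 2.6 mW and 1x, 1 mW and 4.2x, and 1 mW and 1x. In the same order of series, the median share of a window was 100%, 40.7%, 53.8% and 10%, so it sat at a limit in some series. In the libraries of 30 and 180 s with 1 mW and 1x, the median window had 1, the lowest value. There the 2 windows were equal in 66.5% and 80.5% of members. A low r at such limits cannot tell whether neighbours fill apart. The windows of a member share a gene and a library, and these values carry no test.

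Dazl level was compared to learn whether long and 17-nt regions respond alike to more protein. The members' summed coverage was 1.24 to 5.22 times as high at 4.2x in the 6 pairs of libraries, and that of the 17-nt regions 1.23 to 5.09 times. The log2 ratio of members to 17-nt regions differed by -0.02 ± 0.06 (SD, n = 6 pairs), higher at 4.2x in 3 of 6, exact sign-flip p = 0.625. At 2.6 mW against 1 mW the members' coverage was 1.65 to 8.41 times as high and that of the 17-nt regions 1.64 to 7.73 times, and the log2 ratio differed by 0.03 ± 0.07, higher at 2.6 mW in 4 of 6 pairs (exact p = 0.375). For both contrasts the highest folds rest on the libraries of 30 or 180 s with 1 mW and 1x Dazl. There 83.5% (30 s) and 91.3% (180 s) of the 17-nt regions stood at their lowest value of 1. The smallest p that 6 pairs allow is 0.03125. For both contrasts the difference lay within the spread between pairs.

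Region by region, limma called 896 members (86.2%) higher at 4.2x than at 1x Dazl, where 74.6% of all regions were called higher. It called 1006 (96.8%) higher at 2.6 mW than at 1 mW, where the share over all regions was 91.5%, and 632 (60.8%) higher at 680 s than at 30 s, where it was 61.5%. The count called lower was 0 in each of the 3 comparisons, for members and for all regions, and for members also at an unadjusted p under 0.05. Median log2 changes of the members were 0.99 for Dazl, 1.47 for laser power and 0.96 for time, and over all regions 0.77, 1.12 and 0.87. Each change is an average over conditions from an additive fit. The folds of summed coverage given above differed widely between conditions, and such differences enter the residual spread. The spread behind these calls is pooled over all regions, and changes are on the log2(value + 3) scale, which understates those of low values.

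Members could also be set against the median region of each library. For Dazl, 42 members (4.04%) departed upward and 8 (0.77%) downward with limma. The shares were 3.25% and 11.7% over all regions, and 3.37% and 7.75% of 17-nt regions. For laser power 161 (15.5%) departed upward and 67 (6.45%) downward, against 6.92% and 17.2% of all and 6.12% and 13.0% of 17-nt regions. For time 98 (9.43%) departed upward and 40 (3.85%) downward, against 16% and 12.2% of all and 18.1% and 8.28% of 17-nt regions. Regions under 17 nt raise the downward shares over all regions, with 87.2% of them downward for Dazl, 96.0% for laser power and 83.2% for time. The members' median departure over time was 0.06, the opposite sign to the change in the ratio of summed coverage. That sign was not stable. The median was -0.057 with pseudocount 1, -0.014 without the library of 30 s, 1 mW and 1x, and -0.006 without that of 680 s, 1 mW and 1x. With libraries centred on the summed coverage of the 17-nt regions instead, the split turned, to 4 upward and 189 downward for Dazl, 10 and 380 for laser power, and 21 and 200 for time. That sum was taken without the added 3 of the log2 scale, and the shares over all regions were not computed for it. These counts therefore cannot be read as a trait of the members. The direction of a departure thus depends on the scale. The Dazl departures numbered 0 with pseudocount 1 (156 at an unadjusted p under 0.05), and also when any of the libraries of 30 or 180 s with 1 mW, or that of 30 s with 2.6 mW and 1x, was left out (129 to 226 unadjusted). With regions limited to a mean of at least 5, departures numbered 0 for laser power (286 unadjusted) and for Dazl (156).

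Over time, the largest upward departures among members in a gene of their own were in Amotl2, a scaffold of cell junctions, in Malat1, a nuclear speckle RNA, in Tfrc, in Tmbim6, a membrane protein of the endoplasmic reticulum, and in Cdon, a cell surface receptor of the immunoglobulin family. At 30, 180 and 680 s, the 36-nt member of Amotl2 had 3, 2 and 80 with 2.6 mW and 4.2x Dazl, 3, 2 and 60 with 2.6 mW and 1x, 2, 2 and 40 with 1 mW and 4.2x, and 2, 2 and 30 with 1 mW and 1x. In all 4 series it stayed within 1 of the lowest value until 180 s. It departed from the median by 2.35 ± 0.30 on the log2 scale (SE, limma adjusted p = 0.000172). The 37-nt member of Malat1 had 11, 27 and 93 with 2.6 mW and 4.2x and 2, 2 and 40 with 1 mW and 1x (departure 2.28 ± 0.28, adjusted p = 0.000129), and the 20-nt member of Tfrc had 2, 2 and 49, and 2, 2 and 19 (1.87 ± 0.32, adjusted p = 0.00159). Tmbim6 and Cdon departed by 1.67 and 1.64.

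With laser power, the largest upward departures were in Rpn2, in Polr2h, a subunit of RNA polymerases, in Tcp1, a subunit of the cytosolic chaperonin, in Slc39a10, a zinc transporter, and in Epha2, a receptor tyrosine kinase. The 25-nt member of Rpn2 had 139, 111 and 155 at 30, 180 and 680 s with 2.6 mW and 1x Dazl, against 7, 6 and 50 with 1 mW and 1x. At 4.2x Dazl it had 181, 169 and 181 with 2.6 mW, against 43, 23 and 104 with 1 mW. All 6 values at 2.6 mW lay above all 6 at 1 mW, and the departure was 1.28 ± 0.28 (SE, limma adjusted p = 0.00189). The other 4 departed by 1.06 to 1.13. None of these members passed with regions limited to a mean of at least 5, where no member passed for laser power.

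With Dazl, the largest upward departures were in Cbfb, a subunit of core-binding factor, in Wapl, which releases cohesin from chromatin, in Sh2b1, a signalling adaptor, in Psat1, an enzyme of serine synthesis, and in Ezr, a linker of actin to the membrane. The 32-nt member of Cbfb had 38, 40 and 56 at 30, 180 and 680 s with 4.2x Dazl and 2.6 mW, against 3, 2 and 43 with 1x Dazl and 2.6 mW. At 1 mW it had 27, 17 and 41 with 4.2x, against 2, 2 and 20 with 1x. At 30 and 180 s it was thus near the lowest value in the 4 libraries of 1x Dazl and not in those of 4.2x, and the departure was 1.13 ± 0.26 (SE, limma adjusted p = 0.0167). Wapl, Sh2b1, Psat1 and Ezr departed by 0.85 to 1.02. None of these members passed with pseudocount 1, or with regions limited to a mean of at least 5, where no member passed for Dazl.

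The largest downward departures belong to members at the lowest values. Examples for Dazl and laser power are Nectin1, an adhesion molecule, with 2, 3 and 6 at 30, 180 and 680 s with 2.6 mW and 4.2x Dazl, against 3, 2 and 4 with 2.6 mW and 1x, and Septin7, a cytoskeletal GTPase, with 2, 3 and 6 against 2, 2 and 4. At 1 mW both had 2, 2 and 4 with 4.2x Dazl and 2, 2 and 2 with 1x. Marchf6, a ubiquitin ligase of the endoplasmic reticulum, and Sptbn1, a spectrin, had the largest downward departures over time, with 6 at each of the 3 times at 2.6 mW and 4.2x Dazl. In the 680 s library of that series 6 is the lowest value of any member, and 57 members (5.49%) stood at it.

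The share of regions that were long is given by gene group, beside 12.5% over all regions, and differences between groups were not tested. The lists were chosen with earlier results of these data known. The counts called higher below stand beside 74.6% for Dazl, 91.5% for laser power and 61.5% for time over all regions. Of 166 regions in genes of RNA-binding proteins 26 were members (15.7%). The highest were in Srsf6, with means of 88.9 for a 61-nt and 71.3 for a 74-nt member, in Celf1, a regulator of splicing and decay (69.3), and in Hnrnpl, a splicing regulator (65.8). All 26 were called higher at 4.2x Dazl and at 2.6 mW, and 15 at 680 s, with limma. Their median log2 changes were 1.14, 1.601 and 1.07, beside 0.99, 1.47 and 0.96 over all members and 0.77, 1.12 and 0.87 over all regions. Of 38 regions in genes of mRNA decay and poly(A) factors 7 were members (18.4%), in Cnot6, a deadenylase, Cpsf6, a factor of 3′ end processing, Tob1, an antiproliferative protein that binds deadenylases, and Zfp36l2, an AU-rich element binding protein. Of these 7, 6 were called higher for Dazl, 6 for laser power and 5 for time, beside those shares.

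Genes of the cytoskeleton and matrix had 27 members among 280 regions (9.64%), of which the highest after Thbs1 and Itgb1 were in Col1a2, a collagen chain, with a mean of 91.4, and Timp2, a metalloproteinase inhibitor, with 68.3. With limma 26 of them were called higher for Dazl, 27 for laser power and 14 for time, where 74.6%, 91.5% and 61.5% of all regions were. Chaperones and the secretory pathway had 13 of 125 (10.4%), led after Pdia3 by Ssr1, a subunit of the translocon-associated complex (89.5), and Canx (68.1). All 13 were called higher for Dazl and for laser power and 9 for time, beside the same shares over all regions. Translation factors had 6 of 41 (14.6%), in Eif1a, Eif4a1, Eif4g2 and Eef2, and ribosomal protein genes 3 of 47 (6.38%), in Rplp0 (means of 123 and 48.3) and Rpl22 (42.9). All 3 ribosomal members, and 5, 6 and 5 of the 6 translation factor members, were called higher for Dazl, laser power and time, beside the same shares.

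Nuclear and small noncoding RNAs had 6 members among 117 regions (5.13%), 3 each in Malat1 and in Neat1, the paraspeckle RNA. The Malat1 members averaged 42.7, 34.75 and 27.6, and the Neat1 members 36.4, 22.4 and 19. All 6 were called higher over time and for laser power with limma, and 5 for Dazl, beside 61.5%, 91.5% and 74.6% of all regions. No region of the cell cycle list (25 regions), of the germ cell list (4) or of the list for other testis cells (4) was a member. Dazl itself had 0 regions, and the labelled Dazl levels could not be checked on the induced gene.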

How the data were processed

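The authors deposited, for each library, intervals with a score per position that they call normalized coverage, with no strand. FastQC and Bowtie2 were used with mm10, per the submitters' processing notes. Not given in the sources used here are the counting, the normalization and the selection of sites. Library totals ran from 11271 to 252932, and 4 of the 16 samples, those of 0 s, were not analysed here.

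Intervals with a gap of 10 nt or less between them, over all libraries, were joined, and width times score was summed per region. Regions were placed in RefSeq gene spans (GRCm38.p6) by overlap with 1 gene, or with 1 protein-coding gene among several. Strand came from the RefSeq promoter table. Within-library ratios were tested with exact sign-flip tests over matched pairs (64 flips) or permutation of times within series (1296). All 8338 regions were fitted with limma 3.58.1 (R 4.3.3, trend and robust eBayes) on log2(value + 3), with additive terms for time, Dazl and laser, with Benjamini-Hochberg adjustment and a threshold of 0.05. The fit had 7 residual degrees of freedom, and eBayes took the spread as fully pooled on deposited values and added 14.41 on median-centred ones. It was run on simulated data with independent normal noise of equal spread in all regions. These had no lowest values, ties or links between libraries, so that run does not test the calls made here. With 1 library per condition, p-values rest on the additive model.

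Named are the 10 longest members, the 10 of highest coverage, the 10 genes with most members (ties by summed coverage), the 5 largest and 5 smallest passing departures per factor in genes of their own, and listed genes. Members and lists were chosen with earlier results of these data known. Alternatives covered the joining gap, lengths, pseudocounts, filters, centring and each library. A withheld item is not reported here.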

Additional observations from a re-analysis of the deposited data

How the results depend on the processing

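No paired analysis was possible because each condition has 1 library, so no replicate block could be fitted, and the matched pairs of the exact tests are pairs of conditions. The lower ratio of members to 17-nt regions at 680 s kept its direction and its side of the threshold under every alternative except 1, regions averaging at least 20 over the 180 s libraries. That limit, chosen after seeing the data, gave 0.15 for time, -0.11 for laser power and -0.67 for coverage per nt, where longer regions reach it at less coverage per nt. Coverage per nt also turned to -0.065 with regions joined over 30 nt and to -0.13 for members of 2 separate windows, also an added choice, since uncovered positions then count as length. The laser ratio was -0.0072 within genes that hold both kinds, and the Dazl ratio lay between -0.029 and 0.0029 when each library was left out in turn, its sign turning without either library of 180 s at 2.6 mW.

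Counts of members called by limma on deposited values moved by more than 1.5 times in these cases. Over time they were 387 of 736 joined at 0 nt, 323 of 500 for members of at least 34 nt, and 293 of 1039 for a slope on log2 time. When each library was left out, the lowest was 346 of 1039 (without 680 s, 1 mW, 1x). The highest, 895 (without 680 s, 2.6 mW, 4.2x), lay within 1.5 times. Of the 500 members of at least 34 nt, 485 were called for laser power and 439 for Dazl. That limit counts fewer members in the same fit, so the shares over all regions are those given above. For the other alternatives those shares were not computed. Departures from the median moved more. For Dazl, laser power and time they numbered 0, 95 and 56 of 1039 with pseudocount 1, and 207, 525 and 256 with pseudocount 10. At a mean of at least 5 they numbered 0, 0 and 65 of 978 members (156, 286 and 181 at an unadjusted limma p under 0.05). For at least 34 nt they numbered 25, 112 and 62 of 500, and centred on the 17-nt total 193, 390 and 221 of 1039. Joined at 0 nt they numbered 146 for Dazl and 434 for laser power, of 736 members. A slope on log2 time gave 60 of 1039. Leaving out each library gave 0 to 136 for Dazl (highest without 680 s, 2.6 mW, 4.2x), 94 (without 30 s, 2.6 mW, 1x) to 277 (without 680 s, 1 mW, 1x) for laser power, and 60 (without 680 s, 2.6 mW, 1x) to 137 for time. The cause of these shifts was not tested. Depth in reads is unknown, and what it limits cannot be given.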
